A study of Mus musculus with 6 samples.

Results

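The angiopoietin and TIE receptor axis is described here through 5 genes taken by symbol from the deposited table of 13595 genes. They are the ligands Angpt1 and Angpt2, the receptors Tek (which encodes TIE2) and Tie1, and Ptprb, which encodes the vascular endothelial protein tyrosine phosphatase VE-PTP. All 5 were in the table and all 5 passed the filter on low values. The values are poly(A) RNA sequencing counts from cultured primary CD31-positive cells of mouse liver. The donors were C57BL6/J mice, 4 weeks old, and the sex label split the 6 libraries into 3 male and 3 female, numbered 4, 5 and 6 in either group. All of these cultures received 100 µM indoxyl sulfate, a tryptophan metabolite that activates the aryl hydrocarbon receptor (AHR), and were kept for 6 hours in hypoxia and nutrient deprivation. The only contrast is therefore that of the sex label under this treatment. What the treatment did by itself was not analysed here.

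Angiopoietins are secreted ligands that regulate how quiet and how tight blood vessels are. ANGPT1, made mainly by mural and stromal cells, activates TIE2 on endothelial cells, and the PI3K and AKT kinases downstream of the receptor keep FOXO transcription factors out of the nucleus. ANGPT2, stored and released by endothelial cells themselves, is a weaker and context-dependent ligand that can block ANGPT1, and in the liver it is known from sinusoidal endothelium. TIE1 binds no angiopoietin by itself and works as a partner of TIE2, whereas VE-PTP removes phosphate from TIE2 and stabilizes junctions built on VE-cadherin.

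Sequencing depth, summed over the listed genes, was between 22303270 and 31189363 reads per library. Pecam1, which encodes the CD31 used to select the cells, stood between 391.0 and 423.4 in the libraries labelled male and between 73.5 and 74.5 in those labelled female, in normalized read counts. Xist, transcribed from the inactive X chromosome, stood between 0.124 and 0.458 under the male label and between 234.0 and 324.0 under the female label. Transcripts of the 4 Y-linked genes Ddx3y, Eif2s3y, Kdm5d and Uty were present in every library labelled female, at normalized read counts between 17.6 and 57.7, beside 23.7 to 76.3 in the libraries labelled male. Eif2s3y and Kdm5d were called lower under the female label, and Ddx3y and Uty were not called. This goes against the female label, and whether those cultures held cells of both sexes was not tested, so each direction below rests on the labels as given. Male replicate 4 stood apart within its group: the chi-square statistic per gene, near 1 for sampling alone, was 43.6 and 45.4 against the other libraries labelled male, and between 4.35 and 9.59 in the other pairs within a group. Whether replicates are mice, isolations or wells is not given in the sources used here, so each SD and p-value describes the spread between these libraries, which may be technical. The labels name no batch, and a batch that followed the sex label cannot be told apart from it. Throughout, "normalized read count" is the deposited value, in which 1 read was worth between 0.0353 and 0.0475 depending on the library. A gene was called when its limma p-value, adjusted by the Benjamini-Hochberg method over 12568 tested genes, was under 0.05. The authors' deposited table calls fewer genes, 25.8% at a false discovery rate under 0.05, so some genes called here are not called there.

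All 5 genes differed between the groups, and they did not move together. Angpt1, Angpt2, Tek and Tie1 were lower in the libraries labelled female, and Ptprb was higher. The 2 groups did not overlap for any of the 5. This has to be read against the whole table, where 69.3% of genes were called, 34.6% higher and 34.6% lower, and where the groups did not overlap for 74.1%. The 5 were also called by edgeR and by DESeq2 on the recovered reads, which called 68% and 65.7% of the genes they tested. Without male replicate 4 all 5 were called too, with Angpt1 at -2.35, Angpt2 at -1.22 and Ptprb at 3.56 in log2 fold change. A call by itself therefore says little about these genes, and their sizes are given below. The median log2 fold change was -2.23 over the 5 genes and 0.01 over all genes tested. In bulk RNA, fewer cells of a type and less RNA per cell cannot be told apart.

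**Figure D1:**
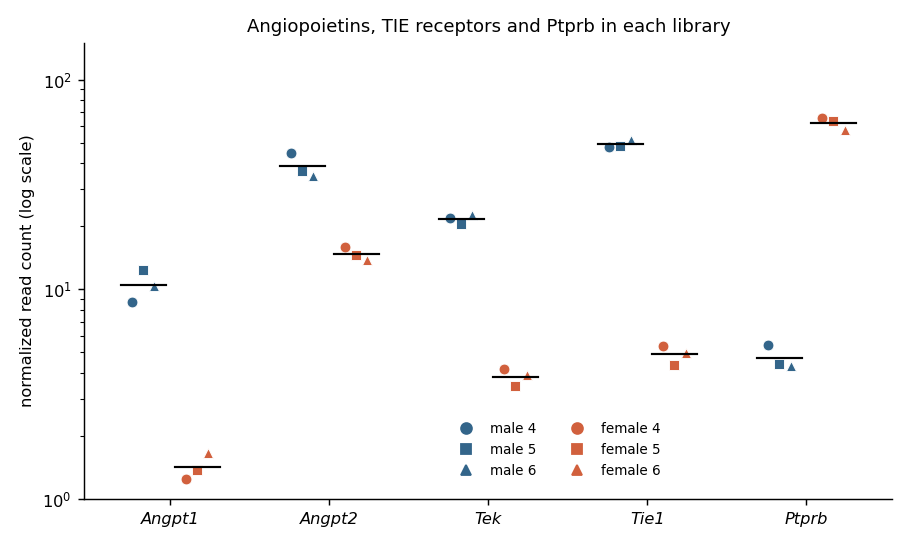
Normalized read count on a log axis for the 5 genes in each of the 6 libraries, with blue symbols for the libraries labelled male, orange symbols for those labelled female, the symbol shape for the replicate number and a black bar for the group mean. The groups are apart for each gene, with Ptprb between 57.7 and 65.4 in the libraries labelled female and between 4.31 and 5.43 in those labelled male, and the other 4 genes lower in the libraries labelled female.

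Angpt1, the activating ligand of TIE2, had normalized read counts of 8.67, 12.4 and 10.3 in male replicates 4, 5 and 6. In female replicates 4, 5 and 6 it had 1.25, 1.37 and 1.66. These rest on 209, 324 and 293 reads and on 30, 31 and 35 reads, so that the low group is also the least precisely measured one of the 5 genes. The level in the libraries labelled female was 13.6% of that in the libraries labelled male (1.43 ± 0.214 against 10.5 ± 1.85, SD, n = 3). Angpt1 thus fell, and the log2 fold change was -2.23 with an SE of 0.14 (adjusted p = 3.12e-06 by limma). The log2(value + 1) scale understates a change at this level, and edgeR's quasi-likelihood test on the recovered reads gave -2.89 (adjusted p 4.11e-06). In the GENCODE M21 annotation, Angpt1 (chromosome 15) shares 737 exon bases with Gm17473, a gene on the opposite strand. Whether the counting used strand is not given in the sources used here, so reads over that stretch could come from either gene.

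Angpt2, the endothelial ligand, had normalized read counts of 44.5, 36.7 and 34.7 in the libraries labelled male and of 15.9, 14.6 and 13.8 in those labelled female, each in the order of replicates 4, 5 and 6. Male replicate 4 was the highest, and the lowest library labelled male was still well above the highest labelled female. The mean fell to 38.1% (14.7 ± 1.05 against 38.6 ± 5.17, SD, n = 3). The log2 fold change was -1.33 with an SE of 0.11 (adjusted p = 1.20e-05 by limma). This was the smallest change of the 5 genes, at place 1644 when the 12568 tested genes are ordered by the size of their change. It is also the one member that the authors' deposited table does not call, with a false discovery rate of 0.311 there and a fold change of -2.62. Angpt2 (chromosome 8) lies within Mcph1, a gene on the opposite strand, with which it shares 0 exon bases. Mcph1 had normalized read counts between 23.1 and 31.3 in the 6 libraries.

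Tek, the receptor for both ligands, was nearly even within each group. Its normalized read counts were 21.9, 20.5 and 22.5 in the libraries labelled male and 4.15, 3.45 and 3.89 in those labelled female. The latter rest on 100, 78 and 82 reads. Tek fell to 17.7% (3.83 ± 0.355 against 21.6 ± 1.01, SD, n = 3). The log2 fold change was -2.23 with an SE of 0.10 (adjusted p = 4.21e-07 by limma). On this scale its change was about as large as that of Angpt1, and the 95% intervals, from -2.46 to -2.00 for Tek and from -2.56 to -1.90 for Angpt1, overlap.

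Tie1, the partner receptor, showed the largest decrease of the 5. Its normalized read counts were 47.6, 48.4 and 51.6 in the libraries labelled male and 5.35, 4.38 and 4.94 in those labelled female. It fell to 9.94% (4.89 ± 0.491 against 49.2 ± 2.12, SD, n = 3). The log2 fold change was -3.09 with an SE of 0.09 (adjusted p = 6.81e-08 by limma). It stood at place 142 among the 12568 tested genes ordered from the most negative log2 fold change up.

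The sequence before the start sites of Tek and Tie1 was also examined. RefSeq promoter sequences (GRCm38.p6) were found for 2 of the 5 genes, Tek and Tie1. The Tek sequence is shown because it can be read as a promoter in both annotations. For Tie1, 212 of the 250 bases lie in an exon of another annotated Tie1 transcript, and it is not printed. The 250 bases before the Tek start site (chr4:94739039-94739288, plus strand) read as follows, with capitals for matches to GGAA, the core that ETS factors bind, on either strand.
Tek: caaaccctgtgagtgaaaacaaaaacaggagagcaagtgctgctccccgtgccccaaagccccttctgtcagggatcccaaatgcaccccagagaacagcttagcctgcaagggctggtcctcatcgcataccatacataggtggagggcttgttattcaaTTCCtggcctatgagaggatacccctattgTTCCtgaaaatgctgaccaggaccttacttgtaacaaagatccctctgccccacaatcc

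The Tek sequence held 2 matches to GGAA, both on the reverse strand, starting at positions -89 and -59 from the start site. The Tie1 sequence held 7. A match was present in 93.4% of 32851 promoters of the same length. The median promoter held 3, and 2 or more were found in 76.8%. The share with 7 or more was 3.82%, though most of the Tie1 window is exon. The core bound by hypoxia-inducible factors, ACGTG, was in neither sequence and in 16.6% of all promoters. The core bound by the AHR complex is written GCGTG, and it was also in neither, against 28.2%. The promoter of Angpt4, a gene described below, held 4 matches to GCGTG, which 0.846% of promoters reach, 5 to GGAA, which 18% reach, and 0 to each of the other 3 motifs. For GATA factors the letters AGATAA were searched, with no match here and a match in 9.99% of promoters. For FOXO factors the search used GTAAACA, which was in neither sequence and in 3.17% of promoters. Both strands were searched and none of these motifs contains another. No match says only that these letters are not in this window. A match does not show binding, and whether any of these factors acts on these genes was not tested.

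Ptprb, the phosphatase that acts on TIE2, went the other way. Its normalized read counts were 5.43, 4.38 and 4.31 in the libraries labelled male, from 131, 115 and 122 reads. In the libraries labelled female they were 65.4, 63.8 and 57.7, from 1577, 1443 and 1214 reads. Ptprb rose 13.2-fold (62.3 ± 4.11 against 4.71 ± 0.628, SD, n = 3). The log2 fold change was 3.47 with an SE of 0.10 (adjusted p = 6.76e-08 by limma). It stood at place 37 among the 12568 tested genes ordered from the most positive log2 fold change down. The authors' deposited table also calls Ptprb (fold change 13.2, false discovery rate 0.0126), Tie1 (-10.1, 0.00895), Tek (-5.64, 0.00173) and Angpt1 (-7.32, 0.00122), where 25.8% of all genes are called.

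**Figure D2:**
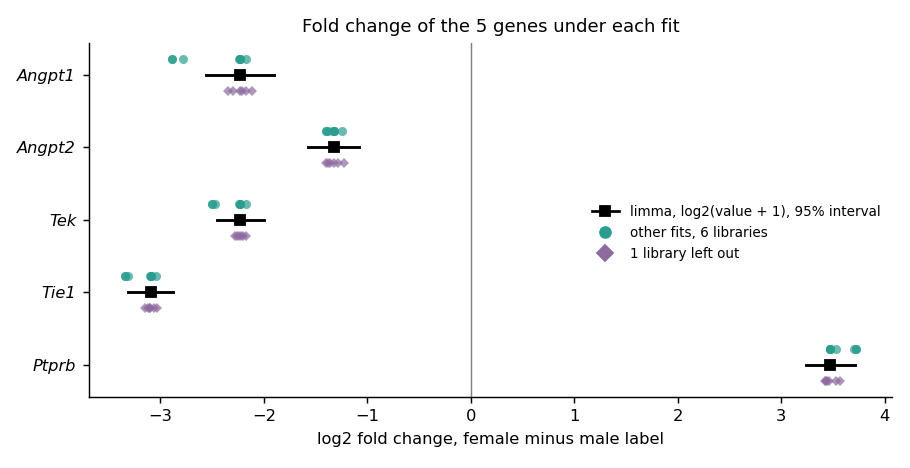
Log2 fold change, female minus male label, of the 5 genes: black squares and bars for the limma estimate and its 95% interval, green points for the other fits of all 6 libraries and purple diamonds for the fits that each left out 1 library. No point crosses 0; the estimates of Angpt1 spread furthest with the choice of fit, from -2.89 to -2.11.

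Angpt4, the mouse gene of a further TIE2 ligand, was at the edge of detection. Its reads numbered 4, 9 and 7 under the male label and 24, 36 and 35 under the female label, so the groups did not overlap. The normalized read count was 0.252 ± 0.0887 against 1.42 ± 0.366 (SD, n = 3). It missed the filter, which asked for 3 or more libraries with a normalized read count of 1 or more, because female replicate 4 stood at 0.996. Tested without the filter it was called higher (log2 fold change 0.94, limma adjusted p 0.000463), and edgeR gave 2.44 (adjusted p 0.000392). The authors' deposited table calls it higher too, at a fold change of 5.51 and a false discovery rate of 0.00846.

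The ratio of 2 genes within a library shows how their balance differed, and its difference between groups does not depend on gene length. The reading of Angpt2 was 5.13, 2.97 and 3.35 times that of Angpt1 in the libraries labelled male. In those labelled female it was 12.7, 10.6 and 8.29 times. Both ligands fell, and the balance between them tilted toward Angpt2 by 1.49 on the log2 scale (female minus male). With a pseudocount of 1 this difference was 0.90. An exact two-sided permutation test gave p = 0.1, which is the smallest p that 3 libraries against 3 allow, and the same p was found for each of the other 6 ratios computed, so that none of the 7 could pass a threshold of 0.05.

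Among the receptors, the reading of Tie1 was 2.18, 2.36 and 2.29 times that of Tek in the libraries labelled male, and 1.29, 1.27 and 1.27 times in those labelled female. The log2 ratio of Tie1 to Tek was thus lower by a difference of -0.83, with SDs of 0.06 and 0.01 (n = 3). The reading of Ptprb was between 0.192 and 0.249 times that of Tek in the libraries labelled male and between 14.8 and 18.5 times in those labelled female. The log2 ratio of phosphatase to receptor went from -2.21 ± 0.19 to 4.03 ± 0.17 (SD, n = 3), a difference of 6.23.

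The order of the genes by level also differed. Levels of different genes were compared after division by the length of the longest coding transcript in GENCODE M21, as normalized read count per kilobase, which depends on the transcript chosen. In the libraries labelled male, Tie1 (11.6 ± 0.501 per kilobase, SD, n = 3) and Angpt2 (10.9 ± 1.45) came first and overlapped each other. Tek followed at 4.65 ± 0.217 per kilobase, then Angpt1 at 2.45 ± 0.433 and Ptprb at 0.395 ± 0.0527. In the libraries labelled female, Ptprb came first at 5.23 ± 0.345 per kilobase, ahead of Angpt2 at 4.14 ± 0.295. Tie1 (1.15 ± 0.116), Tek (0.823 ± 0.0764) and Angpt1 (0.335 ± 0.0502) followed, and no neighbours in this order overlapped. The gene that was lowest per kilobase in one group was thus the highest in the other.

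**Figure D3:**
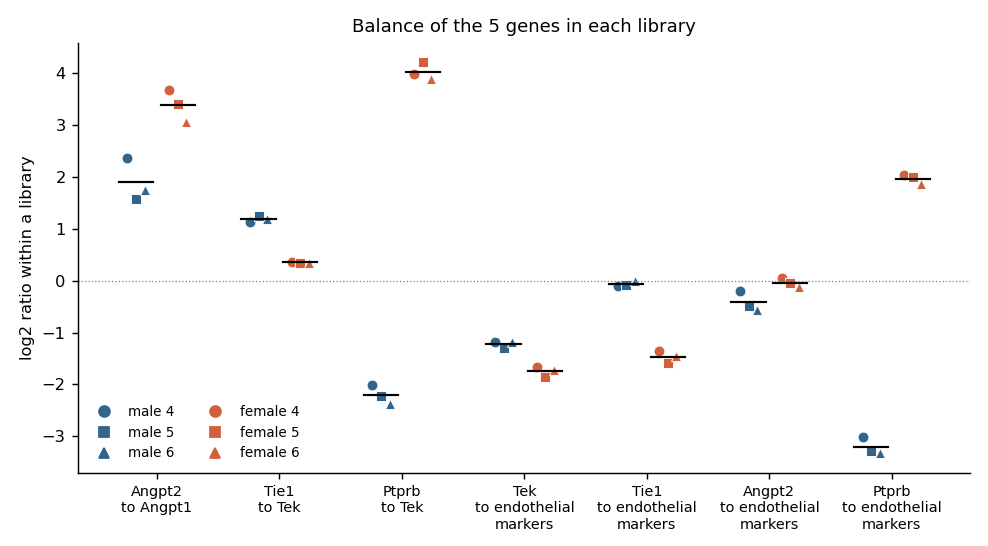
Log2 ratio within each library for 3 pairs of the 5 genes and for Tek, Tie1, Angpt2 and Ptprb against the mean of 17 endothelial markers, with blue symbols for libraries labelled male, orange for those labelled female and black bars for group means. The ratio of Ptprb to Tek moves furthest, from between -2.38 and -2.01 to between 3.89 and 4.21, while that of Angpt2 to the endothelial markers moves by 0.37 and that of Tek to them by -0.53.

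Other endothelial genes also differed, and the axis was set beside them. Of 20 endothelial markers, 17 were tested, 15 were called lower and 1 higher, with a median log2 fold change of -1.53. Over all genes tested, 34.6% were called lower and 69.3% were called. Their summed normalized read count ran from 2559 to 2645.5 in the libraries labelled male and from 1306 to 1357.5 in those labelled female. Tek, Tie1, Angpt2 and Ptprb were then expressed relative to the mean log2(value + 1) of the 17 tested markers in the same library. Some of these, such as Vwf and Robo4 (at most 0.570 and 0.427 under the female label), passed the filter only through the male label. Cldn5 and Sox18, lower under the female label, and Sox17, higher there, missed it. Vwf (log2 fold change -4.71) and Egfl7 (-3.81) pull the mean down under the female label, so the ratios depend on the markers chosen. Relative to the 17 markers, Tek was lower by a log2 difference of -0.53 and Tie1 by -1.40. Angpt2 differed the other way, by 0.37, and by 0.66 with no pseudocount, since it fell less than the markers did on average. Ptprb was above its male level relative to the markers by 5.17. Groups did not overlap for these 4 ratios.

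The markers of other cell types differed in both directions too, and their part in the results was not tested. Their counts stand beside the same 69.3% called over all genes. Of the sinusoidal markers, 3 of 6 tested were called higher and 3 lower, and their summed level was 504.9 to 542.0 against 52.9 to 57.7. Most of the male sum was Lyve1, a hyaluronan receptor, at 469.6 to 512.6 against 4.37 to 5.48. The direction of this sum rested on single genes: without Lyve1 it was 27.5 to 35.3 against 48.5 to 52.6, and without Lyve1 and Gata4 it was 23.8 to 31.5 against 16.3 to 19.7. The others called lower were Stab1, a scavenger receptor, at 14.2 to 18.5 against 1.61 to 2.21, and Bmp2, a secreted growth factor, at 5.69 to 9.33 against 2.14 to 2.96. The 3 that rose were Gata4, a transcription factor of sinusoidal endothelium, at 3.67 to 3.85 against 31.2 to 32.9, the secreted ligand Wnt2 at 0.207 to 0.305 against 7.08 to 8.84, and F8, coagulation factor VIII, at 1.58 to 2.14 against 3.58 to 4.03. Clec4g and Fcgr2b, which define liver sinusoidal endothelium, held 3 reads or fewer in every library, and Stab2 stood at no more than 0.415, so those defining markers were at or near 0 in all 6 libraries, as was Dnase1l3 (at most 0.153). Vwf, the endothelial storage protein of the bodies that also hold ANGPT2, was at 34.9 to 40.3 against 0.374 to 0.570.

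Mural and smooth muscle markers, relevant because mural cells make Angpt1, were split: 5 of 10 tested were called higher and 4 lower. Their summed level was 290.4 to 440.0 in the libraries labelled male and 2655 to 3376 in those labelled female. Most of the female sum was Acta2 and Tagln (900.3 to 1179), so it says little about the other mural genes. The 5 called higher were Des, Acta2, Tagln, Myh11 and Cnn1, and the 4 called lower were Pdgfrb, Rgs5, Cspg4 and Abcc9. Acta2, smooth muscle actin, rose from 45.9 to 133.6 in the libraries labelled male to between 1513 and 1887. Pdgfrb, the receptor that marks pericytes, fell from 128.8 to 136.3 to between 13.0 and 15.3. Among mesothelial and cholangiocyte markers 4 of 6 were called higher and 2 lower, with a summed level of 723.9 to 897.0 against 537.8 to 541.1. Krt19 and Sox9 held most of the male sum, and its fall rests on these 2. Msln, a mesothelial surface protein, was at 17.1 to 20.6 against 299.4 to 357.7. The mesothelial genes Wt1 and Upk3b were also called higher, Wt1 at 0.083 to 0.114 against 11.7 to 13.6. Upk3b had 0 reads in every library labelled male and 33, 86 and 98 in those labelled female. Krt19, a keratin of cholangiocytes, was at 406.9 to 497.7 against 97.8 to 137.7, and Sox9, a cholangiocyte transcription factor, at 297.1 to 396.6 against 58.4 to 74.5, and these were the 2 called lower. Krt7, another cholangiocyte keratin, was called higher, at 1.30 to 2.61 against 8.31 to 10.9.

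Of the fibroblast markers, 6 of 7 tested were called lower and 1 higher (summed level 2628 to 3353 against 947.5 to 961.1). Of the stellate markers, 2 of 4 were higher and 2 lower (250.3 to 263.9 against 46.3 to 49.2), and of the lymphatic markers 2 of 4 were higher and 2 lower (498.0 to 543.0 against 115.3 to 121.3). Lyve1 is also in the lymphatic list, where it is most of the male sum. Without it the lymphatic sum was 25.8 to 30.3 against 110.2 to 115.9, and without Lyve1 and Pdpn it was 19.2 to 22.6 against 14.6 to 16.1. The other lymphatic gene called lower was Flt4, a VEGF receptor, at 16.4 to 20.02 against 10.1 to 12.2. Those called higher were Pdpn, podoplanin, at 6.51 to 7.70 against 94.1 to 101.3, and the transcription factor Prox1 at 2.61 to 3.44 against 3.86 to 5.03. Macrophage markers summed to between 7.51 and 10.1 in the libraries labelled male and between 13.2 and 15.8 in those labelled female, with 2 of 2 tested called higher and the Kupffer cell markers Cd5l and Vsig4 at 3 reads or fewer in every library. Hepatocyte markers, mostly Trf, summed to between 88.4 and 108.4 against between 50.2 and 59.7, with 2 of 2 tested called lower, and Alb, the main hepatocyte transcript, was at 0.600 or less throughout.

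**Figure D4:**
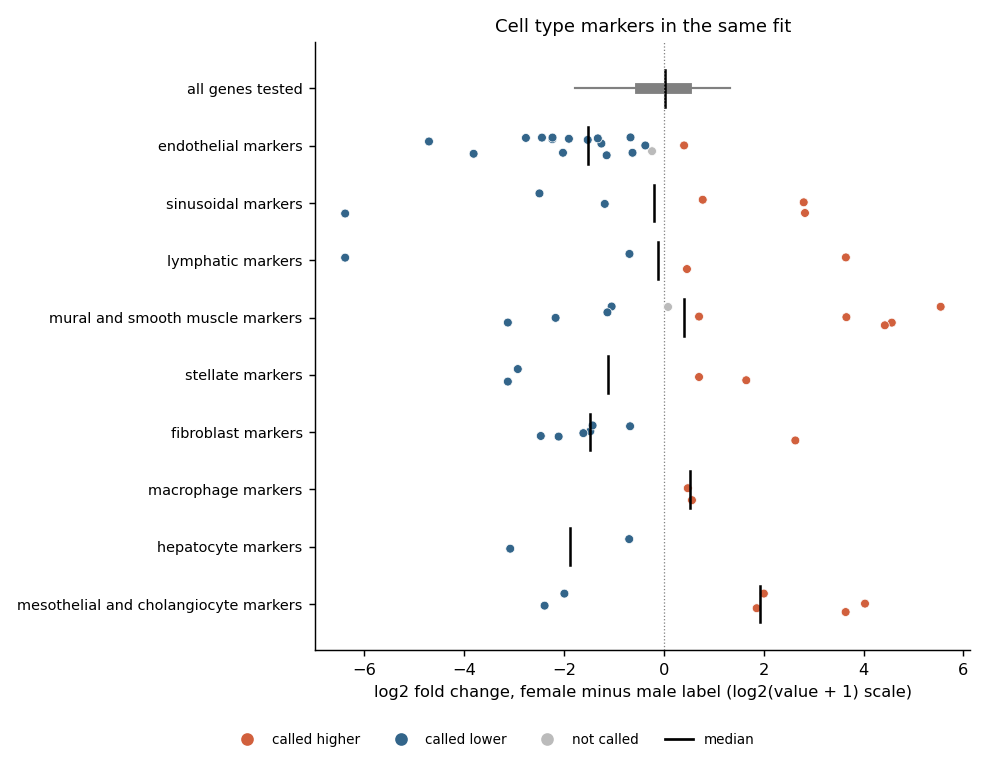
Log2 fold change, female minus male label, of each tested marker gene by cell type list, coloured by call, with a black bar for the list median. The top row shows all 12568 tested genes by their quartiles (thick bar, -0.47 to 0.44) and their 5th to 95th percentiles (thin line, -1.78 to 1.32). Endothelial markers lie mostly below 0, while mural and smooth muscle markers lie on both sides.

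Genes known to act with the axis were taken as 7 lists, which together held 58 tested genes, of which 14 were called higher and 30 lower. That makes 75.9% called, near the 69.3% of all genes tested, with 24.1% higher and 51.7% lower against 34.6% each way. Other ligands and receptor partners of the TIE receptors had 2 of 5 tested genes called higher and 2 lower, with a median log2 fold change of -0.23. With no filter, where Angpt4 joins them, it was 0.20, and it was 0.18 with edgeR and -0.13 with quantile normalization. Leaving out 1 library moved it to -0.37 (male replicate 4), -0.15 (male replicate 6) or -0.11 (female replicate 6). Itgb1, an integrin chain that can bind angiopoietins, rose from between 1473 and 1771 to between 3634 and 4044 (1.29 in log2 with an SE of 0.09, adjusted p = 6.28e-06 by limma). Itgav, another integrin chain, rose by a log2 fold change of 0.63, though the authors' deposited table does not call it (false discovery rate 0.208). Svep1, a matrix protein that binds TIE1, fell by 0.91 on the log2 scale, at normalized read counts no higher than 3.32. The pseudocount of 1 shrinks a change at this level, and its mean fell to 33.9%. The authors' deposited table does not call Svep1 (false discovery rate 0.143). Adam17, a protease of the family that sheds receptor ectodomains, fell by 0.61.

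Adaptors and kinases downstream of TIE2 went both ways. Of 16 tested genes, 6 were called higher, 3 lower and 7 were not called (56.25% called, beside 69.3% of all genes tested). The median log2 fold change was 0.11 (0.05 without male replicate 5 and 0.05 without male replicate 6). Dok2 and Grb7 were not analysed here. Of the 3 PI3K subunits tested, 1 rose, 1 fell and Pik3ca, a catalytic subunit, was not called (log2 fold change 0.34, limma adjusted p 0.0932). Pik3cb, a catalytic subunit, had normalized read counts of 3.03, 2.97 and 2.26 in the libraries labelled male and 44.7, 46.4 and 45.4 in those labelled female. Its log2 fold change of 3.64 with an SE of 0.11 (adjusted p = 6.61e-08 by limma) was larger than that of Ptprb. Pik3r1, the regulatory subunit, went from 301.4, 218.0 and 225.0 to 62.3, 74.9 and 79.9. Its log2 fold change was -1.76 with an SE of 0.14 (adjusted p = 9.24e-06 by limma). Akt1, the kinase that phosphorylates FOXO factors, rose from between 203.1 and 239.4 to between 402.2 and 428.0 (log2 fold change 0.95). Grb2, an adaptor of many receptor kinases, was not called (log2 fold change -0.06).

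FOXO factors and genes known as their targets had 4 of 13 tested genes called higher and 7 lower. That makes 84.6% called, beside 69.3% of all genes tested, with 30.8% higher and 53.8% lower against 34.6% each way. The median log2 fold change was -0.69. Foxo1, the factor best known for acting downstream of TIE2 and for inducing Angpt2, had normalized read counts of 77.3, 69.8 and 75.5 in the libraries labelled male and of 29.1, 25.8 and 30.7 in those labelled female. It fell by 1.35 on the log2 scale with an SE of 0.08 (adjusted p = 2.42e-06 by limma). Foxo3 fell by 1.31. The targets did not share a direction. Cdkn1b, an inhibitor of the cell cycle, fell from between 241.9 and 287.7 to between 45.0 and 55.8 (log2 fold change -2.34), whereas Pdk4, a kinase that restrains pyruvate oxidation, rose from between 73.3 and 130.8 to between 606.6 and 687.7 (2.82). Esm1, a proteoglycan of sprouting endothelium, rose from between 3.85 and 6.01 to between 25.3 and 33.7 (2.43).

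Partners of VE-PTP were lower in 2 of 6 tested genes and higher in 2 (66.7% called, beside 69.3% of all genes tested). The median log2 fold change was -0.21. Without male replicate 4 that median was -0.09, and with any 1 of the libraries labelled male left out 5 genes could be tested, of which 1 was lower. Cdh5, which encodes VE-cadherin, had normalized read counts of 924.6, 917.7 and 928.8 in the libraries labelled male and of 391.6, 396.5 and 373.9 in those labelled female, and fell by 1.25 on the log2 scale with an SE of 0.06 (adjusted p = 4.14e-07 by limma). Ptprb and Cdh5 thus went in opposite directions. Fgd5, an endothelial exchange factor, fell by 1.28 at normalized read counts of at most 3.52, where the log2(value + 1) scale understates a change. Its mean fell to 22.9%, and that of Cdh5 to 41.9%. The authors' deposited table does not call Fgd5 (false discovery rate 0.139). Jup, the junction protein plakoglobin, rose from between 62.7 and 65.4 to between 108.8 and 130.3 (0.90). Kdr, which encodes the main VEGF receptor, stood between 2.34 and 3.96 in the 6 libraries and was not called (log2 fold change -0.24, limma adjusted p 0.175). Ptprj, a phosphatase of the same class as Ptprb, was not called either, at 52.9 to 63.4 against 52.3 to 59.3 (-0.04, limma adjusted p 0.737); its sign turned with quantile normalization (0.03), without male replicate 4 (0.05) and without female replicate 4 (0.00076). Ptprh and Ptpro of that class were not analysed here.

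The angiopoietin-like genes, relatives that do not act through TIE2, had 3 of 3 tested genes called lower, beside 34.6% of all genes tested. The authors' deposited table calls none of the 3, with false discovery rates of 0.230 (Angptl2), 0.0654 (Angptl4) and 0.157 (Angptl6). Their median log2 fold change was -0.56. That median depended on the fit: it was -1.06 with edgeR and -0.96 with a pseudocount of 0.1, and with only 2 genes left to test it was -0.94 without male replicate 5 and -0.91 without male replicate 6. Angptl4, an inhibitor of lipoprotein lipase, fell from between 344.8 and 459.2 to between 155.4 and 179.7 (log2 fold change -1.21). Angptl2 and Angptl6 fell by 0.56 and 0.56 on the log2(value + 1) scale. That scale understates the change of Angptl6, which stood at 1.80 or less: its mean fell to 48.7%, and that of Angptl2 to 67.4%. Angptl7 went the other way at the edge of detection, with 0, 1 and 0 reads in the libraries labelled male and 5, 10 and 4 in those labelled female. It missed the filter, and it was called higher without the filter (limma adjusted p 0.0178) and by DESeq2 (adjusted p 0.00712). Other genes of the family were not analysed here.

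Transcription factors with roles in endothelial genes, hypoxia or the AHR response were called lower in 13 of 14 cases, beside 34.6% of all genes tested, with a median log2 fold change of -1.21. The exception was Elf2, an ETS factor, at -0.02. ETS factors bind the core capitalized in the Tek sequence above, and whether any of them acts on Tek was not tested. Ets2, another of them, fell from 418.0, 501.7 and 554 to 47.4, 47.0 and 50.2 (-3.31 in log2 with an SE of 0.10, adjusted p = 6.76e-08 by limma). Erg, the ETS factor most tied to endothelial identity, fell from between 9.85 and 11.4 to between 0.570 and 1.99 (-2.23). The log2(value + 1) scale understates this change, since its mean fell to 14.6%. Hif1a, the oxygen-regulated factor, fell from between 1141 and 1826 to between 297.7 and 379.3 (-2.18). Ahr fell from between 25.4 and 26.7 to between 20.7 and 22.5, by 0.27 on the log2 scale with an SE of 0.08 (adjusted p = 0.0115 by limma). The authors' deposited table does not call Ahr (false discovery rate 0.703), Erg (0.0563), Foxc1 (0.0716) or Foxc2 (0.0725).

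**Figure D5:**
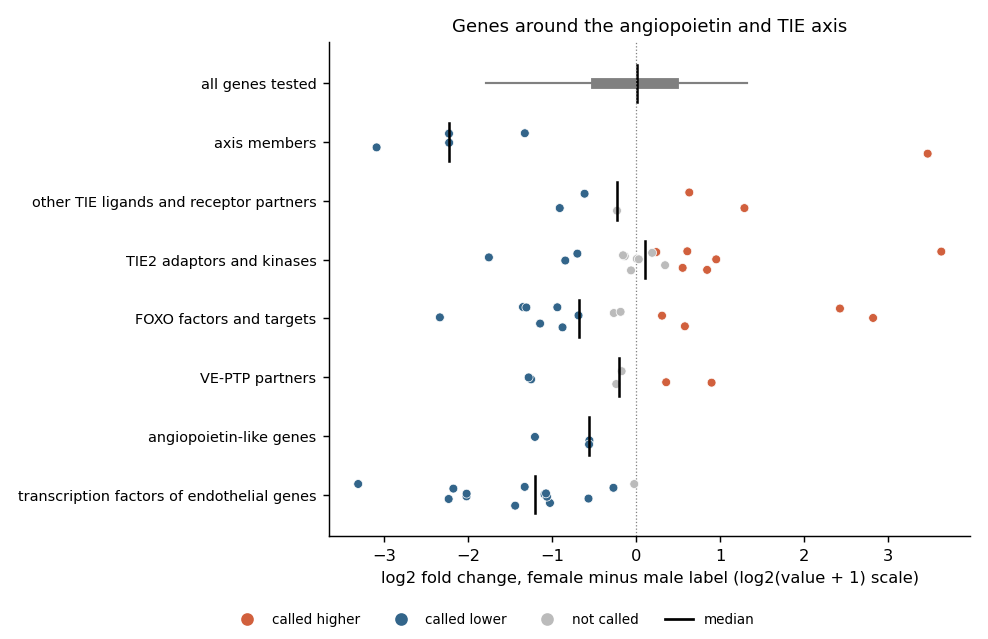
Log2 fold change, female minus male label, of each tested gene of the axis and of 6 lists around it, coloured by call, with a black bar for the list median and, in the top row, the quartiles (thick bar) and the 5th to 95th percentiles (thin line) of all 12568 tested genes. The transcription factors lie at or below 0 and the TIE2 adaptors and kinases on both sides of it, with Pik3cb (3.64) beyond Ptprb (3.47).

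For each of the 5 genes, the 3 tested genes with the most similar pattern over the 6 libraries were named by the root-mean-square difference of log2(value + 1) after each gene was centred on its own mean. For Tek these were Chst15 (0.03), Pqlc1 (0.06) and Rnf208 (0.07). For Tie1 they were Pdgfrb (0.05), Snrk (0.07) and Pde7b (0.07), and for Angpt1 they were Dnaaf2 (0.08), Mdk (0.08) and Moxd1 (0.09). For Angpt2 they were Eln (0.05), Isyna1 (0.06) and Serpinb8 (0.06), and for Ptprb they were St3gal6 (0.06), Ntn4 (0.06) and Amot (0.08). None of the 5 genes was among the 3 nearest to another of them. Ntn4, a secreted laminin-related protein, went from 4.35, 3.36 and 3.21 in the libraries labelled male to 57.4, 56.4 and 50.2 in those labelled female, beside Ptprb. With 6 libraries in 2 groups, this likeness is mostly the size of the group difference.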

How the data were processed

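The authors deposited a signal per gene and library, a normalized read count. Columns were matched to samples by title, and 0 were left over. The submitters' processing notes name Bowtie2, RSEM, edgeR and mm39, without their roles. In every column 100% of values were whole multiples (within 0.01) of one value per library, so reads were recovered by division. Since RSEM estimates counts, these reads may be estimates that were rounded before deposit; which it was is not given in the sources used here. The authors' score (a signed fold change) and their deposited p-value and false discovery rate columns come from a test not given in the sources used here.

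Genes with values of 1 or more in 3 or more libraries (12568) entered limma 3.58.1 (R 4.3.3, eBayes with trend) after a log2 transform with pseudocount 1. Alternatives were edgeR 4.0.16 and DESeq2 1.42.0 on recovered reads, RLE scaling, quantile normalization, a pseudocount of 0.1, other filters, the replicate block and each library left out. A simulation of this contrast put a log2 fold of 1 in 200 genes out of 12443, with the same fixed dispersion for all genes and no outlying library. There limma recovered 200, and 6.10% of its calls were false. In the data 69.3% of genes were called and male replicate 4 stood apart, so the share of false calls here is not known from it.

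The 5 genes and all lists were chosen with earlier results of these data known. Named genes were the 5, the 3 called genes of each list with the largest changes, list genes with a role in the axis, the 3 nearest genes of each member, and the sex-linked check genes. Marker genes given by name were chosen after their values were seen. Lengths, exon overlaps and chromosomes came by symbol from GENCODE M21 (GRCm38), another build than mm39. Replicate numbers did not pair the libraries: deviations of same-numbered libraries correlated at -0.09, -0.03 and -0.17.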

Additional observations from a re-analysis of the deposited data

How the results depend on the processing

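All 5 genes were called in the same direction in each of the 8 other fits of all 6 libraries and in the 6 fits that each left out 1 library, which makes 70 recomputed values with an adjusted p of at most 0.000176. Leaving out 1 library gave log2 fold changes from -2.35 to -2.11 for Angpt1, -1.40 to -1.22 for Angpt2, -2.28 to -2.17 for Tek, -3.15 to -3.03 for Tie1 and 3.42 to 3.56 for Ptprb. With the replicate block all 5 were called (5 genes), 43 genes of the pathway lists were called against 44 without it, and no member changed its call. Whether the numbers pair the libraries is not given in the sources used here, and the deviations of same-numbered libraries could not settle it. The count over all genes, 8704, ran from 8236 (at least 10 reads in every library) to 9085 (no filter), and from 7373 to 9113 (without male replicate 4) when 1 library was left out. The other of the 2 pseudocounts moved the log2 ratio of Angpt2 to Angpt1 from 1.49 to 0.90 and that of Angpt2 to endothelial markers from 0.37 to 0.66. The 30 to 35 reads of Angpt1 in the libraries labelled female limit its precision.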
